A study of Caenorhabditis elegans with 8 samples.

Results

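The FAR proteins (fatty acid and retinol binding) are a family of small, helix-rich lipid carriers found in nematodes. The members were taken by name, as the rows of the count table whose WormBase symbol is far-1 to far-8, and all 8 were found among the 46748 genes of the table. The libraries hold messenger RNA of whole Caenorhabditis elegans hermaphrodites of N2, the wild-type laboratory strain. There were 8 libraries in 4 groups of 2, from worms aged 1 day or 5 days that received arsenite or water. The labels write 100 nM beside arsenite and beside water alike, and do not say how long the worms were exposed. The descriptions of the 1-day libraries add 24 h, without saying of what. Library numbers run from 31 to 34 at 1 day and from 23 to 26 at 5 days, so age and a library batch cannot be told apart. Separate cultures are not mentioned in the labels, and the p-values below reflect the spread among these libraries, which may be technical.

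FAR proteins bind fatty acids and retinol in a hydrophobic cavity. Nematodes cannot make retinol and must import it, and they also carry fatty acids between tissues, for which soluble carriers are needed. Parasitic nematodes release FAR proteins into their hosts, where they are studied as a way of taking up or masking host lipids. In C. elegans the family has been placed by sequence in groups A (far-1, far-2 and far-6), B (far-3, far-4 and far-5) and C (far-7 and far-8), and FAR-7 has a solved crystal structure.

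On the WBcel235 annotation, far-1 (WBGene00001385, III from 9080371 to 9081179, minus strand) and far-2 (WBGene00001386, III from 9081828 to 9082511, plus strand) lie back to back, with 648 bases between their starts and 0 protein-coding genes between them. The genes of group B also form a cluster. On chromosome V, far-5 (WBGene00001389, 12995569 to 12996836, plus strand) and far-3 (WBGene00001387, 12996787 to 12997522, minus strand) overlap by 50 bases at their ends, and far-4 (WBGene00001388, 12998427 to 12999659, minus strand) begins 904 bases further on. The strand setting of the counting is not given in the sources used here, so reads in that overlap could belong to either gene. The others stand alone, with far-6 (WBGene00001390) on IV from 13328359 to 13329314, far-7 (WBGene00001391) on II from 319789 to 321110 and far-8 (WBGene00001392) on III from 842930 to 843802, all on the plus strand. The longest annotated proteins ranged from 138 residues for far-7 to 232 for far-8, and FAR-1 and FAR-2 both had 182.

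Libraries held 21598326 to 27317490 counts. Markers of the hypodermis, intestine, body wall muscle, neurons, germline, pharynx and coelomocytes were all counted in every library, as whole worms require. Of 8 sperm markers, 2 (spe-38 and spe-42) were at 0 in at least 1 library. Levels are given as CPM (library-size-normalised read counts, scaled by TMM) and, where genes are compared with each other, as CPM per kilobase of annotated exon.

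The family was dominated by far-2 and far-1. Per kilobase, far-2 stood at 2310 ± 272 CPM in water at 1 day (SD, n = 2), and only 6 of the 13793 protein-coding genes tested had a higher level there. The level of far-1 was 494 ± 37.1 CPM per kilobase in the same group, and together these genes gave 90.8% to 91.9% of the family's counts at 1 day and 86.8% to 89.9% at 5 days. Below them in water at 1 day came far-3 with 103 ± 0.283 CPM per kilobase, far-6 with 55.3 ± 0.149 and far-8 with 49.2 ± 1.20. The least abundant were far-5 with 5.89 ± 1.11, far-4 with 2.72 ± 0.356 and far-7 with 0.910 ± 0.300 CPM per kilobase. Neighbours in this order did not overlap between libraries in any group at 1 day. At 5 days in water far-5 (3.83 ± 0.881) and far-7 (3.69 ± 1.24 CPM per kilobase) overlapped, with far-4 last (1.60 ± 0.304).

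**Figure D1:**
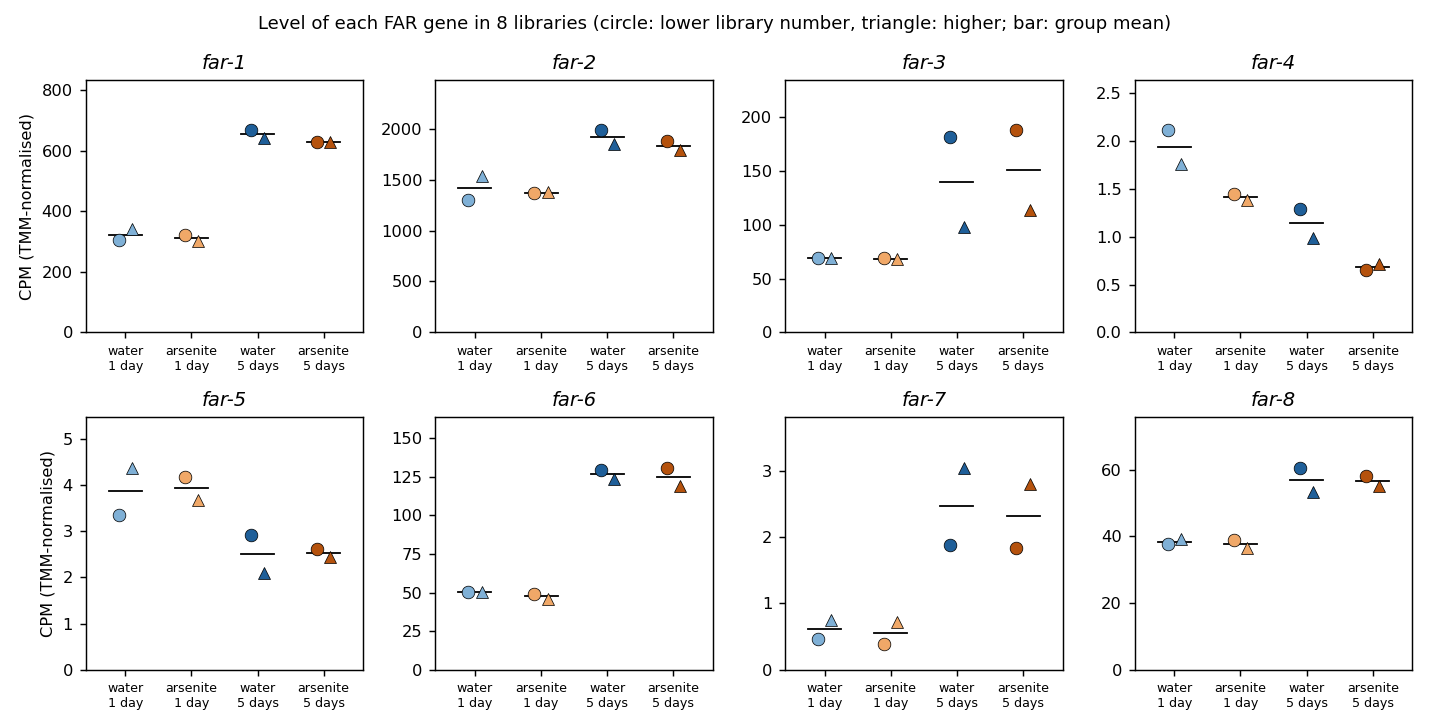
Level of each FAR gene in CPM (vertical axes from 0, scaled separately) in the 4 groups, with 1 point a library, the circle for the lower and the triangle for the higher library number, and a bar for the group mean of 2. The 4 libraries at 5 days lie above the 4 at 1 day for far-1, far-2, far-3, far-6, far-7 and far-8 and below them for far-4 and far-5, and far-3 splits at 5 days into 181.5 and 188.1 against 97.64 and 113.8 CPM.

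The clearest difference in the family was between the ages. In water, 5 of the 8 genes rose from 1 day to 5 days (far-1, far-2, far-6, far-7 and far-8), 2 fell (far-4 and far-5), and far-3 was higher without passing the test. The test was edgeR's quasi-likelihood test with Benjamini-Hochberg adjustment over 14449 genes, called at an adjusted p under 0.05. All 8 members passed its filter on low counts. The same test called 60.1% of all genes between these groups, 30.1% higher and 30% lower. In all 8 members the libraries of the ages did not overlap, as in 79% of all genes. The median log2 fold change was 0.79 over the members and 0.01 over all genes tested. In arsenite, whose libraries are separate from those in water, again 5 members rose and 2 fell, where 59.6% of all genes were called, 30.3% higher and 29.4% lower. The ages again did not overlap in any of the 8, as in 81% of all genes. The 7 genes called were the same in both, in the same directions. How many of all genes were called in both was not counted. Both comparisons come from the same fit with a shared spread, and in both age goes with library number, so the second is not a replication. Under DESeq2 the falls of far-4 and far-5 were not called and far-3 was called. The count thus became 6 higher and 0 lower in either medium. The shares of all genes above are those of edgeR and are not the background of this DESeq2 count. In water DESeq2 called fewer of the 14449 genes than edgeR, with nearly as many higher as lower. Over 19 alternative settings in each medium, DESeq2 among them, 7351 to 9242 genes were called in water and 7168 to 9199 in arsenite. The DESeq2 split of all genes into higher and lower in arsenite is not given here. A difference of the family from these backgrounds was not tested.

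Group A rose throughout, and far-1 doubled. Its level in water was 305.7 and 340.0 CPM at 1 day and 667.6 and 641.8 CPM at 5 days. The arsenite libraries gave 321.1 and 300.2 CPM at the younger age and 628.7 and 630.4 CPM at the older. Every 5-day library thus lay far above every 1-day library, and the log2 fold change reached 1.02 in water (SE 0.06, edgeR adjusted p = 1.77e-12) and 1.02 in arsenite (SE 0.06, adjusted p = 1.70e-12). Its partner far-2 rose less, from 1296 and 1531 to 1985 and 1849 CPM in water. The arsenite libraries went from 1372 and 1375 CPM to 1880 and 1790 CPM. The ages did not overlap, and the log2 fold change was 0.44 in water (SE 0.07, edgeR adjusted p = 1.38e-05) and 0.42 in arsenite (SE 0.07, adjusted p = 2.56e-05).

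Because far-1 rose more than far-2, the balance within the pair shifted. Per kilobase, far-2 was 4.52 to 4.89 times as high as far-1 in the 4 libraries at 1 day and 3.03 to 3.19 times at 5 days, without overlap. An exact permutation test of age within each medium, two-sided and chosen after seeing the data, gave p = 0.0556 (n = 4 and 4), the smallest this design allows. The family's share of all counts went from 0.172% to 0.200% at 1 day to 0.279% to 0.314% at 5 days, with the same exact p of 0.0556. Any measure whose ages do not overlap, in the same direction in both media, gives this p in this design. It thus adds nothing to the lack of overlap, which 79% of all genes had in water and 81% in arsenite. In whole worms, more cells of a type and more RNA per cell cannot be told apart.

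The third gene of group A, far-6, rose most among the well-counted members. In water it went from 50.11 and 50.30 CPM to 129.7 and 123.5 CPM, and in arsenite from 48.93 and 46.00 to 131.0 and 119.4 CPM. Replicates lay close together at both ages. The log2 fold change was 1.33 in water (SE 0.07, edgeR adjusted p = 5.28e-14) and 1.3999 in arsenite (SE 0.07, adjusted p = 2.30e-14). Per kilobase, far-6 moved from rank 2417 to rank 734 of the 13793 protein-coding genes in water.

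Both genes of group C rose. The gene far-8 stood at 37.81 and 39.13 CPM in water at 1 day and at 60.65 and 53.47 CPM at 5 days. With arsenite these values were 38.90 and 36.51 CPM, then 58.06 and 55.14 CPM. These groups were well apart, and its log2 fold change of 0.57 in water (SE 0.08, edgeR adjusted p = 1.56e-06) and 0.59 in arsenite (SE 0.08, adjusted p = 9.67e-07) was close to that of far-2. The gene far-7 had the largest fold change of the family on the fewest counts at 1 day. There were 11 and 20 counts in water at 1 day and 45 and 71 at 5 days, and in arsenite 10 and 19 against 45 and 62. The lowest 5-day library still had 1.840 CPM, well above the 0.7474 CPM of the highest 1-day library. The log2 fold change was 1.99 in water (SE 0.36, edgeR adjusted p = 5.70e-05) and 2.05 in arsenite (SE 0.37, adjusted p = 5.43e-05).

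Group B did not move as one. The gene far-4 was counted 50 and 47 times in water at 1 day and 31 and 23 times at 5 days, and in arsenite 37 and 37 against 16 and 16 times. It fell by 0.76 on the log2 scale in water (SE 0.28, edgeR adjusted p = 0.0236) and by 1.04 in arsenite (SE 0.32, adjusted p = 0.00776). The gene far-5 had 3.341 and 4.372 CPM in water at 1 day and 2.918 and 2.101 CPM at 5 days. With arsenite it went from 4.175 and 3.677 CPM to 2.617 and 2.431 CPM. It fell by 0.62 in water (SE 0.22, edgeR adjusted p = 0.0164) and by 0.63 in arsenite (SE 0.22, adjusted p = 0.0145) on the log2 scale. Both falls rest on few counts, and with DESeq2 the adjusted p was 0.138 and 0.0533 for far-4 and 0.0723 and 0.0628 for far-5, in water and arsenite. Leaving out water library 31 ended the call of far-4 in water (adjusted p = 0.145) and leaving out water library 33 that of far-5 (-0.41, adjusted p = 0.216). Leaving out water library 25 ended both (far-4 -0.58, adjusted p = 0.164, and far-5 -0.41, 0.179), as did leaving out libraries 25 and 26 together. In arsenite the call of far-5 ended without library 32 (adjusted p = 0.102) or 26 (0.0648).

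**Figure D2:**
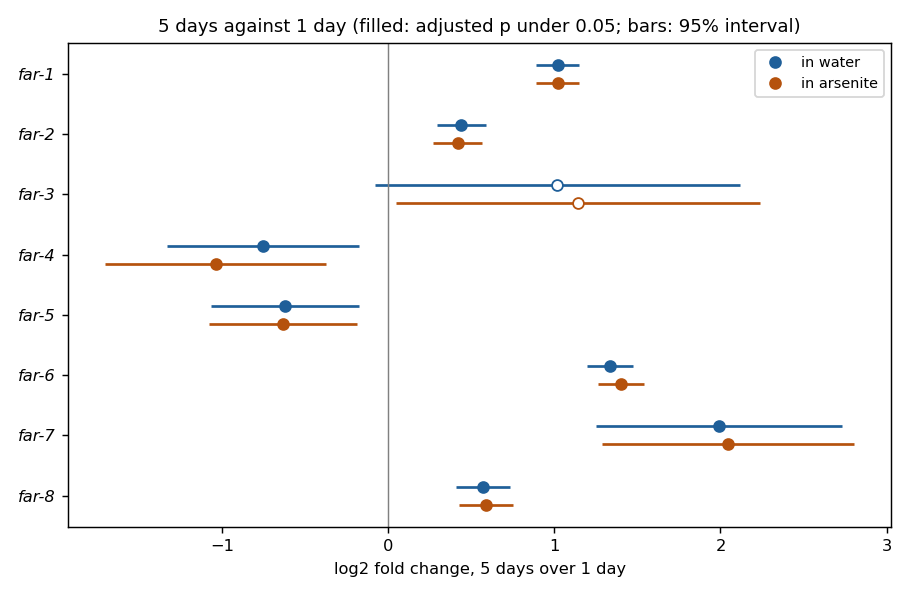
Log2 fold change of each FAR gene, 5 days over 1 day (horizontal axis), in water and in arsenite, with 95% intervals of the edgeR fit over 8 libraries; filled points have an adjusted p under 0.05. In both media far-7, far-6, far-1, far-8 and far-2 lie above 0 and far-4 and far-5 below, and the open points of far-3, at 1.02 and 1.14, have the widest intervals.

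The remaining gene of group B, far-3, separated the 5-day libraries from each other. At 1 day its 4 libraries lay close together, between 67.91 and 69.18 CPM. At 5 days it stood at 181.5 CPM in water library 23 and 188.1 CPM in arsenite library 24, but at 97.64 CPM in water library 25 and 113.8 CPM in arsenite library 26. All 4 were thus above the 1-day level, and libraries 23 and 24 were 1.86 and 1.65 times as high as the other library of their group. The spread left the age difference uncalled in water (log2 fold change 1.02, SE 0.40, edgeR adjusted p = 0.0950) and in arsenite (1.14, SE 0.40, 0.0711). Without libraries 23 and 24 the log2 fold change was 0.50 in water and 0.72 in arsenite, and without 25 and 26 it was 1.398 and 1.45. These exclusions were chosen after seeing the data and leave a single library in each 5-day group. The fit then holds no spread between 5-day libraries, so only the fold changes are given. Leaving out library 25 alone gave 1.39 in water, and leaving out water library 23 or 25 gave 1.13 in arsenite. In the other direction, leaving out library 23 alone gave 0.50 in water, and leaving out library 24 alone gave 0.72 in arsenite. Each of these fits also leaves a single library in a 5-day group and so holds less of the spread between 5-day libraries. Only their fold changes are given. With a term for neighbouring library numbers, which the labels do not describe as a pairing, edgeR called far-3 in water (0.95, SE 0.058, adjusted p = 5.22e-15) and in arsenite (1.09, SE 0.058, 1.49e-16). That term takes up the split between the 5-day libraries, so these p-values do not measure the age difference against that spread. DESeq2 without the term also called far-3 (adjusted p = 0.0230 and 0.0104).

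Few genes split the 5-day libraries this way. Of 9268 genes with at least 5 CPM in one group, 22 were more than 1.5-fold higher in both library 23 over 25 and library 24 over 26, with 0.5 CPM added to each value. Only 6 of these, counting far-3 itself, were as high as far-3 in both ratios. The gene far-7 showed the opposite order, and at both ages. Its ratio of the lower to the higher library number was 0.622 and 0.547 at 1 day and 0.616 and 0.659 at 5 days, in water and arsenite. These ratios rest on 10 to 71 counts a library, and how many genes keep the same order in every group was not counted. Summed marker levels in the same libraries were 1902 and 1766 CPM in 23 and 24 against 2297 and 2167 CPM in 25 and 26 for the intestine, and 206.2 and 200.4 against 289.9 and 250.6 CPM for the pharynx. Of the 8 marker lists, 5 were lower in 23 and 24 than in the other library of the group (intestine, pharynx, hypodermis, body wall muscle and neurons). The coelomocyte and sperm lists were higher there, and the germline list differed in direction between water and arsenite. Their part in the far-3 difference was not tested.

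**Figure D3:**
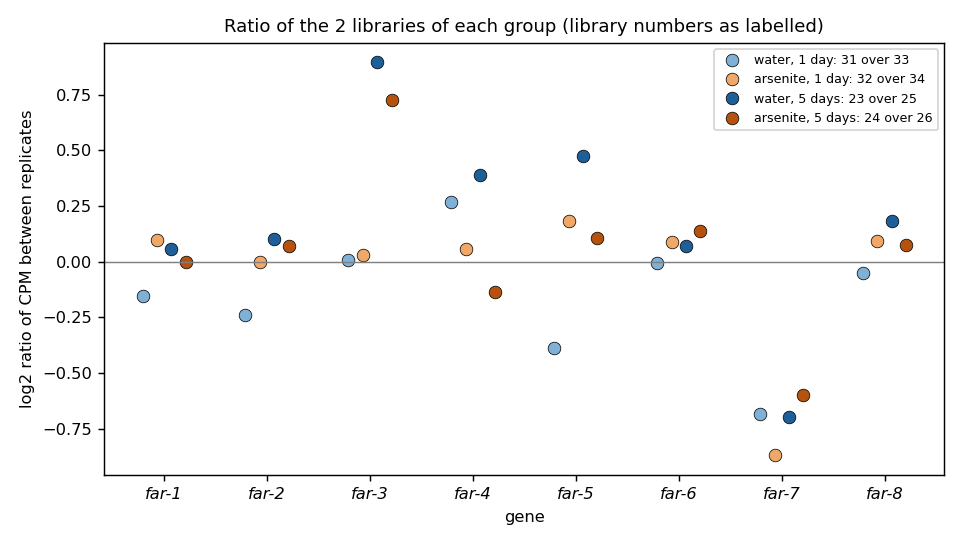
Log2 ratio of CPM between the libraries of each group, lower over higher library number (vertical axis), for each FAR gene, with 1 point a group. The 5-day points of far-3 (ratios 1.86 and 1.65) stand above its 1-day points (1.00 and 1.02), and all 4 points of far-7 lie below 0.

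No FAR gene was called between arsenite and water. These comparisons use the same libraries as those between ages. At 1 day 0 of 8 passed the edgeR test, as did 0 of all 14449 genes (0%), and at 5 days 0 of 8 against 0.0138% of all genes, which is 2 genes. DESeq2 and limma voom also called 0 members in either comparison. An unadjusted p under 0.05 was found for 0 members at 1 day, and for 238 of all 14449 genes. At 5 days it was found for 1 member (far-4) and for 573 of all genes. The median log2 fold change over the members was -0.05 at 1 day and -0.04 at 5 days, beside -0.00 and -0.00 over all genes.

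Intervals were narrow for far-1, far-2, far-6 and far-8. The log2 fold change of far-1, arsenite over water, was -0.06 at 1 day (95% interval -0.18 to 0.07) and -0.06 at 5 days (-0.18 to 0.07). That of far-2 was -0.04 (-0.19 to 0.10) and -0.06 (-0.21 to 0.08). For far-6 it was -0.08 (-0.22 to 0.06) and -0.02 (-0.15 to 0.12), and for far-8 -0.03 (-0.19 to 0.14) and -0.01 (-0.17 to 0.15). All of these intervals included 0. The intervals of far-3, far-5 and far-7 were wider and reached from -1.13 to 1.11, from -0.40 to 0.44 and from -1.09 to 0.80 at 1 day. For far-3 this width comes with the shared spread of all 8 libraries. Its SE at 1 day was 0.41 there, 0.056 when only the 1-day libraries were fitted and 0.059 with the term for neighbouring library numbers, and the log2 fold change was -0.01 in each.

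The gene with the smallest p was far-4. At 1 day its water libraries had 2.114 and 1.756 CPM and its arsenite libraries 1.444 and 1.388 CPM. At 5 days the values were 1.292 and 0.9863 CPM against 0.6542 and 0.7202 CPM. Its arsenite libraries lay below its water libraries at both ages. So did those of far-6 at 1 day and far-1 at 5 days, which makes 2 of 8 members at each age, where the groups did not overlap in 28.5% of all genes at 1 day (14.2% lower in arsenite) and 29.5% at 5 days (15.4% lower). The log2 fold change was -0.45 at 1 day (SE 0.27), -0.73 at 5 days (SE 0.34) and -0.59 averaged over both ages (SE 0.21, unadjusted p = 0.0119, edgeR adjusted p = 0.9999). These values rest on 16 to 50 counts a library and were called under no alternative, with an adjusted p for the average between 0.854 and 1.

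**Figure D4:**
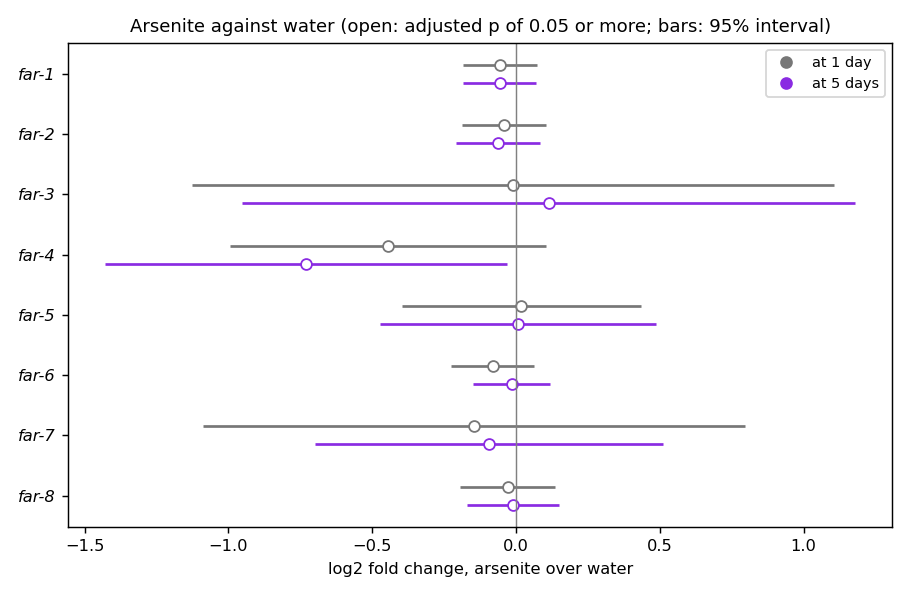
Log2 fold change of each FAR gene, arsenite over water (horizontal axis), at 1 day and at 5 days, with 95% intervals of the edgeR fit; open points were not called. No point is filled, far-1, far-2, far-6 and far-8 lie within 0.1 of 0, and far-4 lies lowest at -0.45 and -0.73.

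The arsenite difference itself did not pass a test between the ages in any member. Over the 8 genes the difference of the log2 fold changes, 5 days minus 1 day, had a median of 0.01. An unadjusted p under 0.05 was found for 0 members and for 368 of all 14449 genes. Among all genes 0% were called. For far-4 it was -0.28 (SE 0.43, edgeR adjusted p = 0.9999).

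Other lipid carriers were described beside the family from lists of known members, whose counts stand against the 60.1% of all genes called in water, 30.1% higher and 30% lower. Of 9 genes of the intracellular lipid-binding protein family, small fatty acid carriers, 2 rose and 5 fell from 1 day to 5 days in water. Their median log2 fold change was -0.50. Among them lbp-1 fell by 1.41 (SE 0.08) and lbp-6 by 0.99 (SE 0.08), whereas lbp-4 rose by 0.82 (SE 0.09). Of 7 lipocalin-related genes, whose products are extracellular carriers at epithelial surfaces, 0 rose and 5 fell (median -0.80), lpr-6 by 1.42 (SE 0.14). Of the 6 yolk lipoprotein genes and the yolk receptor gene rme-2, 1 rose and 6 fell (median -0.45), where vit-1 fell by 3.36 (SE 0.07) and vit-5 rose by 0.38 (SE 0.08). Among 22 other carriers and receptors, 6 rose and 10 fell (median -0.20). The gene dhs-28, a peroxisomal dehydrogenase of fatty acid chain shortening, fell by 0.96 (SE 0.06). The CD36-like scavenger receptor gene scav-4 fell by 2.09 (SE 0.17), and dsc-4, a lipid transfer protein subunit, fell by 0.85 (SE 0.08). The median of the FAR list, 0.79, was positive where these medians were negative, but the lists were chosen with earlier results known and the difference was not tested. In arsenite the counts were 2 and 5, 0 and 5, 1 and 5, and 6 and 11 in the same order, and 0 members of these lists were called between arsenite and water at either age.

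Of 12 regulators of lipid genes, 4 rose and 2 fell with age in water (median 0.12), where 60.1% of all genes were called. A difference from that share was not tested. The sterol regulatory factor sbp-1 rose by 0.83 (SE 0.08), pqm-1 by 0.74 (SE 0.10) and hlh-30, the TFEB homologue that drives lysosomal lipid breakdown, by 0.68 (SE 0.09). The Mediator subunit mdt-15 fell by 0.26 (SE 0.06).

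**Figure D5:**
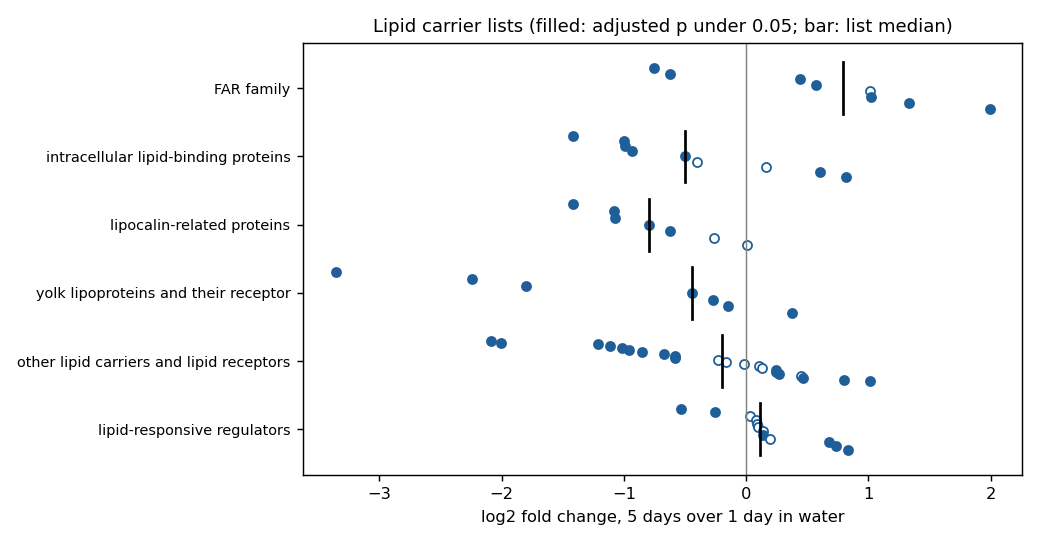
Log2 fold change from 1 day to 5 days in water (horizontal axis) for every tested member of the FAR family and of 5 lists of other lipid genes, with filled points at an adjusted p under 0.05 and a bar at the list median. The FAR median is 0.79, and the medians of the lists below it are -0.50, -0.80, -0.45, -0.20 and 0.12.

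Markers of the tissues fell or rose with age beside these changes. Their counts stand against 60.1% of all genes called in water and 59.6% in arsenite. Summed CPM of 10 hypodermis markers was 721.1 to 786.7 at 1 day and 237.3 to 262.5 at 5 days, where 2 rose and 7 fell in water and 2 rose and 6 fell in arsenite. Most of that fall lay in the collagen gene col-19, without which the sum was 271.9 to 278.8 CPM at 1 day and 217.5 to 243.4 CPM at 5 days. The 10 intestine markers went from 3934 to 4273 CPM down to 1766 to 2297 CPM (1 rose and 7 fell in water, 0 and 8 in arsenite). Most counts of that list lay in asp-1, which fell by 1.82 on the log2 scale in water, and cpr-1, which rose by 0.48. The 10 body wall muscle markers went from 5693 to 6029 CPM down to 1662 to 1944 CPM (10 fell in each medium). Neuron markers were 374.0 to 401.3 CPM at 1 day and 502.1 to 574.9 CPM at 5 days (4 rose and 0 fell in water, 2 rose and 1 fell in arsenite). Without snb-1, a synaptic vesicle protein gene, their sum was 256.2 to 272.4 and 251.5 to 307.5 CPM. Germline and oocyte markers were 6811 to 7126 and 7232 to 7365 CPM (5 rose and 2 fell in each medium). The 5 pharynx markers were 452.2 to 477.3 and 200.4 to 289.9 CPM (0 rose, and 4 fell in water and 5 in arsenite), and the 8 sperm markers 10.28 to 11.24 and 4.592 to 6.461 CPM (of 6 tested, 0 rose and 3 fell in each medium). The 2 coelomocyte markers were 9.169 to 11.50 and 6.218 to 8.253 CPM (0 rose and 1 fell in each medium). The part of these changes in the rise of the FAR genes was not tested.

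The genes next to the FAR loci differed from them in places and matched them in others. Beside far-1 and far-2, mrpl-44, a mitochondrial ribosomal protein gene, fell by 0.59 on the log2 scale in water (SE 0.06, edgeR adjusted p = 5.64e-09), and F02A9.1 was not called (0.04, SE 0.49). Beside far-6 lies fat-2, a desaturase of polyunsaturated fatty acid synthesis, 1963 bases upstream on the same strand. It rose from 309.6 ± 6.09 to 1065 ± 3.56 CPM in water (SD, n = 2), by 1.78 on the log2 scale (SE 0.07, edgeR adjusted p = 1.98e-16), and pqn-74 on the other side rose by 1.37 (SE 0.22). Next to far-7, K01A2.10 rose by 1.77 (SE 0.16), and K01A2.9 was at 0 counts in every library. Beside far-8, K02F3.9 fell by 1.72 (SE 0.14) and K02F3.2 fell by 0.35 (SE 0.06). At the group B cluster, inft-2 was not called (0.05, SE 0.06) and dsl-7 fell by 1.15 (SE 0.46, edgeR adjusted p = 0.0351) on 26 counts a library or fewer.

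Within the family the profiles of far-2 and far-8 over the 8 libraries were closest to each other, with a root mean square difference of 0.0940 in centred log2 CPM, followed by far-1 and far-6 at 0.180. The farthest apart were far-4 and far-7 at 1.46. Among 9263 other genes of at least 5 CPM in a group, cpi-2, a cysteine protease inhibitor gene, was nearest to far-1 (0.0197), followed by hmg-12 (0.0366). Nearest to far-2 were cyp-31A5 (0.0389) and F44E2.10 (0.0406). For far-6 they were tbca-1 (0.0601) and F37C4.5 (0.0607), and for far-8 C34D4.4 (0.0288) and rnf-126 (0.0311). The nearest to far-3 were farther off, the cytochrome P450 gene cyp-35B2 (0.113) and the UDP-glucuronosyltransferase gene ugt-41 (0.115). These 8 points share libraries and depth and fall into 2 ages, so the distances are a description. The genes far-4, far-5 and far-7 were under 5 CPM in every group and were not matched.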

How the data were processed

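Messenger RNA of 8 whole-worm libraries was analysed from the deposited table of whole-number read counts per gene. The processing notes of the submitters list STAR 2.4.1d, featureCounts 1.4.6-p4 and CASAVA 1.7 and the build WBcel235. Which annotation release and strand setting were used is not given in the sources used here. A table of RPKM values was not used here, because its library divisors varied over genes in the pair of libraries checked. Symbols came from a reference table (43693 identifiers matched), positions and exon lengths from an Ensembl annotation of WBcel235. No sequences were used, and the planned promoter motif search was not run.

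Counts were filtered with filterByExpr (minimum count 10, minimum total 15), scaled by TMM and fitted with a robust quasi-likelihood model to 4 group means over all 8 libraries in edgeR 4.0.16 (R 4.3.3), leaving 14449 genes and 4 residual degrees of freedom. Benjamini-Hochberg adjustment ran over all of these. Standard errors are the fold change divided by the root of F. The test was also run on simulated data with known changes. Alternatives used DESeq2 1.42.0, limma 3.58.1 with voom, other scalings and filters, fewer libraries and a term for neighbouring library numbers. Log2 CPM for profile distances used a prior count of 2.

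The members and lists were chosen with earlier results of these data known. Named genes are all FAR genes, up to 4 members of each other lipid list with the smallest p between ages in water (not all are printed), the 2 nearest profiles of each FAR gene of at least 5 CPM, and the nearest protein-coding gene on each side of a locus.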

Additional observations from a re-analysis of the deposited data

How the results depend on the processing

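No paired analysis was possible because the labels carry no replicate numbers and define no pairs. A term for neighbouring library numbers, which the labels do not call pairs, was fitted as an alternative. Under it far-3 was called between ages in both media, but the term takes up the split of far-3 between the 5-day libraries. Arsenite calls over all genes at 5 days went from 2 to 22. The count of FAR genes called was 0 in the 4 comparisons of arsenite under every alternative run, and 6 to 8 of 8 between ages in water and in arsenite. Of all genes, the same alternatives called 7351 to 9242 between ages in water and 7168 to 9199 in arsenite. The main fit tested 14449 genes, and filters and left-out libraries changed that number. A difference of the family from all genes was not tested. Calls of far-1, far-2, far-6, far-7 and far-8 between ages held under all 19 alternatives in each medium. Those of far-4, far-5 and far-3 did not, as given above, and the cause was not tested. The stricter minimum count of 50 removed far-4.

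Arsenite fold changes near 0 changed sign. On leaving out 1 library at a time, the log2 fold change at 1 day ranged from -0.1314 to 0.0221 for far-1, -0.1581 to 0.0826 for far-2, -0.0254 to 0.0036 for far-3, -0.1569 to 0.2309 for far-5, -0.6454 to 0.2487 for far-7 and -0.0781 to 0.0159 for far-8. At 5 days it ranged from -0.3002 to 0.6216 for far-3, -0.2152 to 0.2570 for far-5, -0.0895 to 0.0385 for far-6, -0.4268 to 0.2875 for far-7 and -0.1072 to 0.0740 for far-8. With no filter, far-5 at 5 days was -0.0033. None of these was called. Over all genes, arsenite calls at 5 days went from 2 to between 0 and 22, at 1 day from 0 to at most 2, averaged from 0 to at most 7, and for the difference between ages from 0 to at most 2. No scaling moved the median of all genes by 0.1 or more on the log2 scale. With library totals only, calls between ages were 5032 higher and 3735 lower in water and 5134 and 3622 in arsenite, against 4348 and 4337, and 4371 and 4245. Values of far-4 and far-7 rest on 10 to 71 counts a library.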
